A study of Drosophila melanogaster with 12 samples.

Results

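The genes described here are 95 fly genes that have a CG number as their symbol and whose mRNA was lower in the heads of both *tbph* mutant alleles than in *w1118* controls. A gene was taken when its present RefSeq symbol is CG followed by digits, when at least 1 probe set on the array belongs to it alone, and when the mean of the 3 mutant arrays lay 0.8 or more below the mean of the 3 control arrays on the log2 scale in *tbph*Δ23 and again in *tbph*Δ142. Of the 11982 genes measured, 5137 carry such a symbol (42.9%), and the 95 are 1.85% of these. The mutant and control arrays chose the genes, so their falls are given as a description. The rescue arrays took no part in the choice, and what these genes did in the rescue is the main result.

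TBPH is the fly homologue of TDP-43, an RNA-binding protein that acts in splicing, stability and transport of mRNAs and that forms inclusions in neurons in amyotrophic lateral sclerosis and frontotemporal dementia. A CG number is given to each predicted protein-coding gene when the fly genome is annotated, and it remains the symbol until a gene is named from a phenotype, a homologue or a biochemical function. A fly head holds brain, eyes, glia, fat body, hemocytes, muscle, cuticle-forming cells and antennae, so a change in head RNA can arise in any of them.

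The 4 groups had 3 arrays each, described as biological replicates, of adult heads taken 60 h after eclosion. The controls were *w1118* flies. The mutants were homozygous for *tbph*Δ23 or *tbph*Δ142, independent loss-of-function alleles from stocks kept over the CyO-GFP balancer. The paper calls them null mutants and writes both copies of the gene as mutant. These 3 groups ate standard food without drug. The rescue flies were *tbph*Δ23 homozygotes with a UAS-TBPH transgene and *elav*-GS-GAL4, a GAL4 that is made in neurons and that works only when flies eat RU-486, and they were fed 5 mM RU-486 from eclosion until sampling. The drug, the transgenes and the return of TBPH therefore vary together, and there was no drug-fed mutant or control among these arrays. Neither the sex of the flies nor the number of heads per array is stated in the sources used here, and the p-values measure the spread between these arrays. Values are log2 intensities after RMA normalization. A fold change of 2 is a difference of 1 on this scale, a low value near the floor of the array understates a change, and a probe set's level is set only against the same probe set in other arrays. In whole heads, fewer cells of a type and less RNA per cell cannot be told apart. All adjusted p-values are from limma, Benjamini-Hochberg adjusted over the 11982 genes, with 0.05 as the threshold.

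A single rescue array stood apart. Rescue replicate 1 read 12.56 for betaTry and 12.91 for alphaTry, digestive proteases of the gut, where the other 11 arrays read at most 4.41 and 4.10. Its mean correlation with the other rescue arrays was 0.973, against 0.985 for the other two and at least 0.995 within the other groups, so results that rest on it are given with and without it. The marker lists also moved between groups, as log2 of summed intensities. Fat body markers read 14.68 to 14.87 in the rescue and 13.01 to 13.87 in the other 9 arrays, with 5 of 5 higher than in both mutants, and hemocyte markers read 10.33 to 10.60 against 8.64 to 9.46, with 5 of 6 higher and He below 5 in every group. The yolk protein list of female fat body read 15.64 to 15.76 in the rescue, 13.70 to 14.45 in control, 11.28 to 12.43 for *tbph*Δ23 and 13.87 to 14.35 for *tbph*Δ142, and the antennal list 10.74 to 12.63 in the rescue against 6.39 to 9.10. Muscle markers were lower in the rescue (11.38 to 11.86 against 11.87 to 12.14, 3 of 4 past the threshold). Neuronal markers lay between 11.12 and 11.41 in all 12 arrays, with brp below 5, glial markers between 12.97 and 13.32 and photoreceptor markers between 14.60 and 14.79, while all 7 testis and accessory gland markers were below 5. Singly, 4 of 5 neuronal markers were higher in the rescue than in *w1118* and 1 was lower. Against the mutants, 1 neuronal marker was lower than in *tbph*Δ23 and 1 higher than in *tbph*Δ142. Of 5 glial markers 1 was lower than in *w1118*, and 1 was higher and 1 lower than in each mutant. Of 3 photoreceptor markers none passed against *w1118* and 1 was lower than in each mutant. The part of these differences in the results below was not tested. Of the 2 TBPH probe sets, the one with signal averaged 7.98 ± 0.03 in control heads, 8.19 ± 0.12 in those of *tbph*Δ23, 5.43 ± 0.10 in those of *tbph*Δ142 and 9.51 ± 0.34 in rescue heads (SD, n = 3). It lies at a place on the transcript that the files do not give, so it checks neither deletion.

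In the mutants the fall of these genes, averaged over both alleles, had a median of -1.27 on the log2 scale, or 2.41-fold, and ran from -2.70 to -0.82. It was 2 or more in 6 genes, between 1 and 2 in 71 and under 1 in 18. In 94 of the 95 all 6 mutant arrays lay below all 3 control arrays, and the exception was CG13428. The rule chose the genes on these same arrays, so this separation is largely given by the choice and nothing is read from it. By the fit, 92 of the 95 passed the threshold in both alleles, where 9.68% of all genes did so; the rule used this contrast and nothing is read from the count. The same threshold also took 137 genes with a proper name, so that 232 of the 11982 genes (1.94%) lay 0.8 or more below control in both alleles, while 68 CG genes lay as far above it.

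CG4702, CG4880 and CG42749 were just inside it, with a smaller fall of -0.81, -0.82 and -0.82. CG6753, CG9498 and CG14787 were just outside it at -0.79, -0.79 and -0.78. These 6 genes differ in their fall by less than the median standard error of 0.0928, so the limit separates no distinct class. A limit of -0.7 would take 130 genes and one of -0.9 would take 75. The value of CG42749 is the median of 2 probe sets that disagree. In *tbph*Δ23 and *tbph*Δ142 the brighter in control changed by -1.65 and -1.81, and the other by 0.002 and -0.23.

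CG5697 fell the most. For CG5697 the 3 control arrays read 7.0, 7.88 and 7.78, those of *tbph*Δ23 4.44, 4.87 and 4.82, those of *tbph*Δ142 5.33, 5.27 and 4.4 and those of the rescue 3.45, 3.68 and 3.28. Its mutant arrays lay below every control array without overlap, and the 3 rescue arrays lay below every mutant array. CG10208 and CG11170 fell by much the same amount in both alleles. Control heads had CG10208 at 8.5, 8.74 and 8.72, *tbph*Δ23 heads at 6.46, 6.68 and 6.63, *tbph*Δ142 heads at 6.45, 6.51 and 6.74 and rescue heads at 6.69, 6.62 and 6.79. The signal of CG11170 was 6.10, 6.07 and 6.12 in control heads, 3.92, 4.21 and 4.20 in the heads of *tbph*Δ23, 4.0, 4.05 and 4.31 in those of *tbph*Δ142 and 4.51, 4.62 and 4.79 in rescue heads. Their 6 mutant arrays form a single narrow band in each case, well below control. CG12483 read 7.49, 7.52 and 7.48 in the 3 control arrays, 5.78, 5.36 and 5.83 in those of *tbph*Δ23, 5.26, 5.39 and 5.56 in those of *tbph*Δ142 and 3.89, 3.51 and 4.05 in those of the rescue. For CG15414 the 3 control arrays read 9.14, 9.60 and 9.16, those of *tbph*Δ23 7.80, 7.52 and 7.91, those of *tbph*Δ142 7.17, 6.96 and 7.30 and those of the rescue 6.10, 5.15 and 5.17. These last 2 genes fell in the mutants and were lower again in the rescue.

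**Figure D1:**
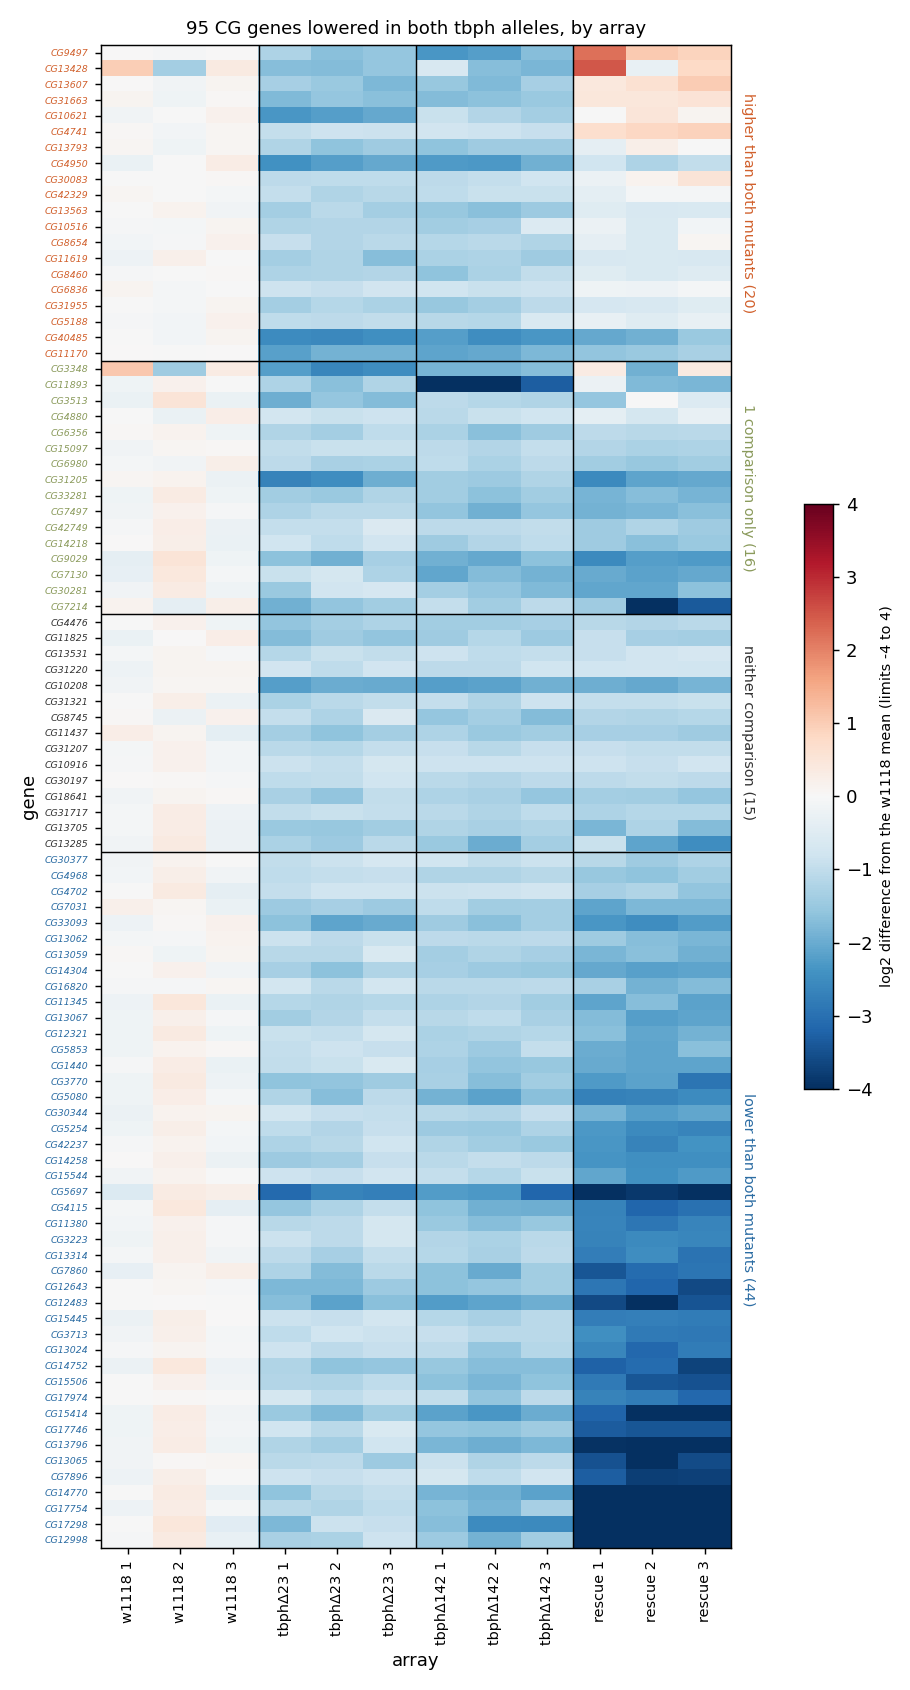
Heat map of the 95 genes (rows) in the 12 arrays (columns), coloured by the log2 difference from the mean of the 3 *w1118* arrays, with colours limited to -4 and 4. Rows are grouped by what the rescue did against both mutants, 20 higher, 16 past the threshold in 1 comparison only, 15 past it in neither and 44 lower, and the rescue columns of the lowest block are the darkest blue of the map.

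In the rescue these genes did not move as a block. Against both mutants, 20 of the 95 were higher and 44 were lower, where 10.5% and 10.6% of all genes were. Another 15 passed the threshold in neither comparison (64.2% of all genes), and 16 passed it in 1 comparison only. Against *tbph*Δ23 alone 22 were higher and 52 lower (14.3% and 15.1% of all genes), and against *tbph*Δ142 alone 23 were higher and 47 lower (14.3% and 13.2%). The comparisons with the mutants share the mutant arrays with the rule that chose the genes, and they share the rescue arrays with each other. The median difference of the rescue was -0.54 from *tbph*Δ23 and -0.36 from *tbph*Δ142, against 0.01 and 0.01 over all genes.

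The end point was below control for most. Against *w1118*, 81 of the 95 were lower in the rescue and 4 were higher, where 18.0% and 16.9% of all genes were, and the median difference was -1.80. The w1118 arrays are the ones the rule used. In 83 genes all 3 rescue arrays lay below all 3 control arrays (23.0% of all genes), and in 59 the rescue had the lowest mean of the 4 groups. For the latter the share of all genes was not taken, and the rule leaves *w1118* above both mutants in each of the 95. All 3 rescue arrays lay below all 6 mutant arrays in 48 genes and above them in 21, against 14.6% and 14.9% of all genes. The number of genes with a mean under 5, near the low end of the scale, was 6 in control, 23 and 24 in the mutants (*tbph*Δ23 and *tbph*Δ142) and 38 in the rescue.

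Named genes lowered by the same threshold also went both ways. Of those 137, 35 were higher in the rescue than in both mutants (25.5%) and 54 were lower (39.4%), against 21.1% and 46.3% of the 95 CG genes. Of the 5042 other CG genes, 9.02% were higher and 8.39% lower. The median level in *w1118* was 7.63 for the 95, 4.51 for all CG genes and 5.89 for all genes. The part of level in these shares was not tested. Whether the 95 differ from the named genes was not tested, since both were chosen on the mutant arrays.

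**Figure D2:**
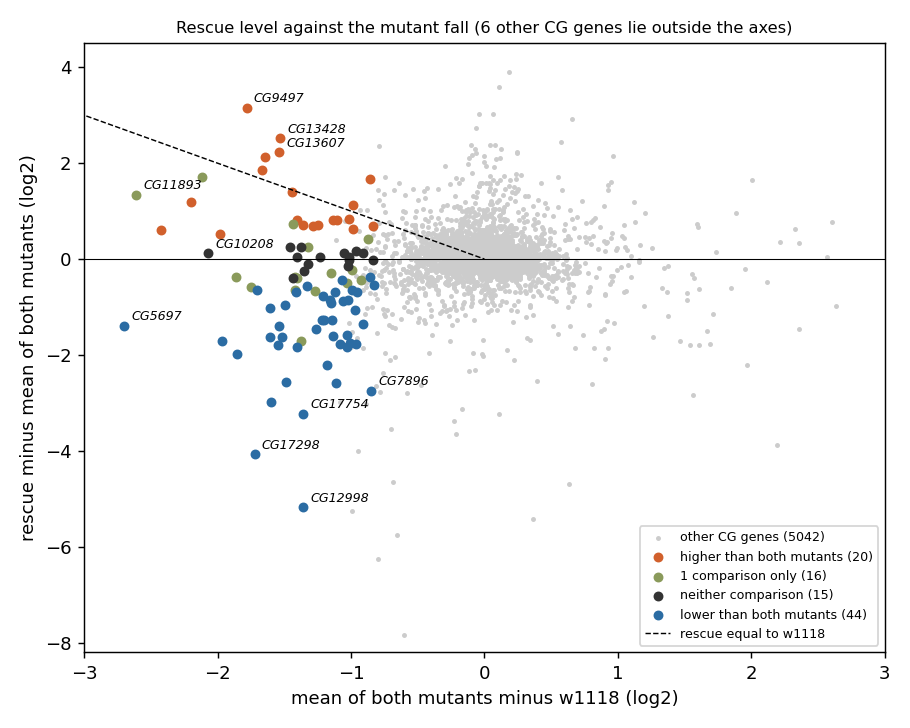
Each point is a CG gene, with the mean difference of both mutants from *w1118* on the horizontal axis and the difference of the rescue from the mean of both mutants on the vertical axis, both log2. Grey points are the 5042 other CG genes (6 lie outside the axes), and on the dashed line the rescue equals *w1118*. Blue points, lower than both mutants, reach -5.18 for CG12998, and 7 of the 95 genes lie above the dashed line.

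Among the 20 genes that were higher in the rescue than in both mutants, the median rise over the mean of the mutants was 0.83 on the log2 scale, from 0.53 to 3.16. As a share of the mutant fall the rise was 77.3% at the median and ran from 25.0% to 193.7%. In 19 of the 20 the rescue arrays lay above all mutant arrays. Of the 20, 8 did not pass the threshold against *w1118*, 8 were still lower than it and 4 had passed above it. In the same 3 rescue arrays the fat body, hemocyte, yolk protein and antennal lists were high, as given above.

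CG9497 rose the most. RefSeq lists Dro31-0 as another name for it, which states no function. Control heads had CG9497 at 8.52, 8.47 and 8.54, *tbph*Δ23 heads at 7.27, 6.84 and 6.95, *tbph*Δ142 heads at 6.19, 6.30 and 6.81 and rescue heads at 10.70, 9.56 and 9.39. Its rescue arrays lay above every other array, control arrays included. The rescue exceeded *tbph*Δ23 by 2.87 (SE 0.28, adjusted p = 1.53e-05), *tbph*Δ142 by 3.45 (SE 0.28, adjusted p = 5.12e-06) and *w1118* by 1.38 (SE 0.28, adjusted p = 0.00245). Replicate 1 was the highest of the 3 rescue arrays, and without it the difference from *w1118* was 0.97 with an adjusted p of 0.000527.

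CG9498, the gene next to CG9497 in RefSeq order, missed the limit by 0.01 and is named here after its values were seen. For CG9498 the 3 control arrays read 8.49, 8.44 and 8.61, those of *tbph*Δ23 7.49, 7.37 and 7.79, those of *tbph*Δ142 7.85, 7.48 and 7.84 and those of the rescue 8.87, 8.56 and 8.53. It too fell in both mutants and its rescue arrays overlap the control arrays, higher than *tbph*Δ23 by 1.11 (adjusted p = 7.81e-05) and than *tbph*Δ142 by 0.93 (adjusted p = 0.000364). Against *w1118* its difference was 0.14 (adjusted p = 0.465).

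A further 3 genes ended above control. The signal of CG13607 was 7.66, 7.48 and 7.74 in control heads, 6.29, 6.13 and 5.83 in the heads of *tbph*Δ23, 6.11, 5.87 and 6.31 in those of *tbph*Δ142 and 8.05, 8.24 and 8.66 in rescue heads. CG31663 read 7.46, 7.17 and 7.38 in the 3 control arrays, 5.57, 5.78 and 5.66 in those of *tbph*Δ23, 5.61, 5.70 and 5.85 in those of *tbph*Δ142 and 7.79, 7.81 and 7.88 in those of the rescue. For CG4741 the 3 control arrays read 5.80, 5.65 and 5.84, those of *tbph*Δ23 4.81, 4.92 and 4.91, those of *tbph*Δ142 5.00, 4.94 and 4.84 and those of the rescue 6.43, 6.59 and 6.69. In each of them the 3 rescue arrays lay above the 3 control arrays and the 6 mutant arrays. The rescue exceeded *w1118* by 0.69 (SE 0.17, adjusted p = 0.0068) for CG13607, by 0.49 (SE 0.09, adjusted p = 0.00129) for CG31663 and by 0.81 (SE 0.08, adjusted p = 1.16e-05) for CG4741. These 3 calls against *w1118* passed under every alternative setting tried. The 2 probe sets of CG4741 differ in size. One averaged 5.94, 4.34, 4.38 and 6.72 in *w1118*, *tbph*Δ23, *tbph*Δ142 and the rescue, and the other 5.58, 5.42, 5.47 and 6.42, so the fall in the mutants comes mostly from the former and the rise in the rescue shows in both.

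Control heads had CG10621 at 8.78, 8.92 and 9.10, *tbph*Δ23 heads at 6.59, 6.73 and 6.88, *tbph*Δ142 heads at 8.03, 7.77 and 7.59 and rescue heads at 8.93, 9.42 and 9.05. The rescue arrays of CG10621 overlap those of control and lie above both mutants, and the alleles themselves were apart, by 1.06 (SE 0.15, adjusted p = 0.00304), with the value higher in *tbph*Δ142 than in *tbph*Δ23. The rescue differed from *w1118* by 0.20 (SE 0.15, adjusted p = 0.321), with 95% limits of ± 0.32. The signal of CG13793 was 4.63, 4.36 and 4.62 in control heads, 3.34, 2.93 and 3.11 in the heads of *tbph*Δ23, 2.92, 3.11 and 3.12 in those of *tbph*Δ142 and 4.19, 4.76 and 4.51 in rescue heads. CG13793 likewise ended at -0.05 (SE 0.15, adjusted p = 0.827) from *w1118*, again with limits of ± 0.32, after a rise of 1.36 (SE 0.15, adjusted p = 2.73e-05) over *tbph*Δ23. All its values are low on the array.

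CG4950 read 7.82, 8.06 and 8.37 in the 3 control arrays, 5.65, 5.89 and 6.03 in those of *tbph*Δ23, 5.82, 5.78 and 6.16 in those of *tbph*Δ142 and 7.30, 6.84 and 7.12 in those of the rescue. CG4950 rose in the rescue by 1.23 (SE 0.16, adjusted p = 0.00015) over *tbph*Δ23 and stayed -1.0 (SE 0.16, adjusted p = 0.0005) from *w1118*, so that 54.5% of its mutant fall was undone. CG11170 rose by 0.53 (SE 0.11, adjusted p = 0.00248) over *tbph*Δ23, and 26.7% of its mean fall was undone. CG6836, CG8654, CG42329, CG30083 and CG10516, with CG10621, CG13793 and CG13428, are the 8 genes of this group that did not differ from *w1118* past the threshold. The 8 that were still lower were CG31955, CG8460, CG11619, CG13563, CG4950, CG11170, CG5188 and CG40485. CG42329 is the median of 2 probe sets. In *w1118*, *tbph*Δ23, *tbph*Δ142 and the rescue, the weaker averaged 3.34, 3.37, 3.38 and 3.40, near the low end of the scale. The other averaged 6.06, 3.83, 4.15 and 5.62, so the median understates its differences, that from *w1118* included.

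CG13428 had the largest standard error of the 95 in the fit. For CG13428 the 3 control arrays read 7.54, 5.19 and 6.92, those of *tbph*Δ23 4.84, 4.82 and 4.99, those of *tbph*Δ142 5.90, 4.83 and 4.72 and those of the rescue 9.03, 6.26 and 7.33. Its mutant and control arrays overlap, and both control and rescue spread over more than 2 log2 units. In the same control replicate 2 that read lowest, the fat body, hemocyte and yolk protein lists were also the lowest of the 3 controls (13.01, 8.64 and 13.70). Rescue replicate 2 was the lowest rescue array of CG13428. There the fat body and yolk protein lists were the highest of the 3 rescue arrays (14.87 and 15.76) and the hemocyte list the lowest (10.33). The part of these lists in its values was not tested. The rescue exceeded *tbph*Δ23 by 2.66 (SE 0.68, adjusted p = 0.011) and *tbph*Δ142 by 2.39 (SE 0.68, adjusted p = 0.0206). The latter missed the threshold without *tbph*Δ142 replicate 2 (2.23, adjusted p = 0.069) or replicate 3 (2.18, adjusted p = 0.0702). Without rescue replicate 1 the differences were 1.91 (adjusted p = 0.0219) and 1.65 (adjusted p = 0.0472).

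CG40485 belongs to the group by its median only. RefSeq lists it also as FOHSDR, a name used in insects for short-chain dehydrogenases that act on farnesol. One of its probe sets averaged 10.51 in control heads, 5.0 and 5.04 in those of *tbph*Δ23 and *tbph*Δ142 and 6.62 in those of the rescue, while the other averaged 9.08, 9.55, 9.87 and 9.33. The former fell by 5.5 and 5.47 and the latter was 0.48 and 0.80 above control, so the gene has no single direction on this array. Over the median of both, its rise over *tbph*Δ142 was 0.52 (SE 0.13, adjusted p = 0.0127), and it missed the threshold without *tbph*Δ142 replicate 2 (0.44, adjusted p = 0.0547). With the probe set of higher mean over all arrays, the one that did not fall, it would not be among the 95.

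**Figure D3:**
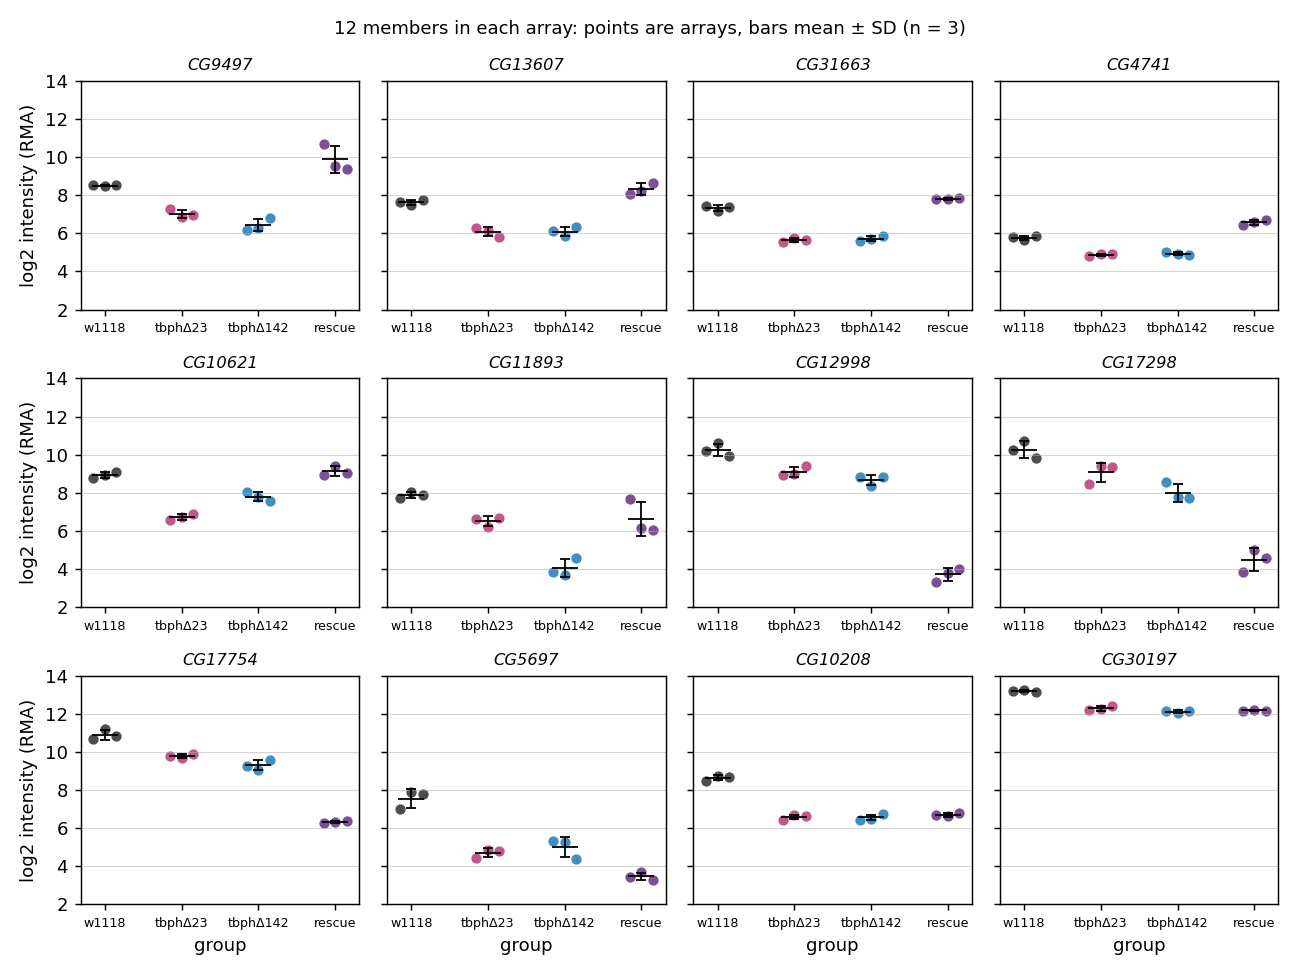
Log2 intensity of 12 of the 95 genes in each group, with a point for each array and bars for the mean and SD (n = 3). CG9497, CG13607, CG31663 and CG4741 lie above control in the rescue, CG12998, CG17298, CG17754 and CG5697 lie below both mutants there, and CG10208 and CG30197 have rescue arrays that overlap the mutant arrays.

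The 44 genes that were lower in the rescue than in both mutants form the larger group. Their rescue level lay a median of -1.39 from the mean of the mutants, from -5.18 to -0.38. The distance was over 1 in 29 genes and over 2 in 8. All 44 were below *w1118* past the threshold, and in all 44 the 3 rescue arrays lay below the 6 mutant arrays. Both counts follow largely from the choice, since the rule put the mutants below *w1118* and the group was called below the mutants. The muscle list was low in the same arrays. The summed neuronal, glial and photoreceptor lists lay within the range of the other 9 arrays, though single markers of these lists differed as given above. Of this group 38 of 44 kept the call in both comparisons under every alternative setting, and CG13059, CG30377, CG33093, CG4702, CG4968 and CG7031 lost it in at least 1. By leaving out single arrays CG33093 lost it in 7 settings, CG30377 and CG4968 in 5, CG4702 in 3 and CG13059 and CG7031 in 2. Beside the genes described below, those with a distance between 1 and 2 were CG17974, CG15506, CG14752, CG13024, CG3713, CG12643, CG7860, CG13314, CG3223, CG11380, CG4115, CG15544, CG14258, CG5254 and CG5080, and those under 1 were CG3770, CG1440, CG5853, CG12321, CG11345, CG16820 and CG14304.

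Control heads had CG12998 at 10.18, 10.61 and 9.94, *tbph*Δ23 heads at 8.93, 8.97 and 9.41, *tbph*Δ142 heads at 8.81, 8.36 and 8.85 and rescue heads at 3.33, 3.79 and 4.0. CG12998 thus ended at the low end of the scale in the rescue, at -5.40 (SE 0.22, adjusted p = 2.04e-08) from *tbph*Δ23 and -4.96 (SE 0.22, adjusted p = 3.97e-08) from *tbph*Δ142. The signal of CG17298 was 10.26, 10.72 and 9.81 in control heads, 8.48, 9.40 and 9.34 in the heads of *tbph*Δ23, 8.55, 7.76 and 7.72 in those of *tbph*Δ142 and 3.82, 5.01 and 4.60 in rescue heads. The rescue values of CG17298 differ from *tbph*Δ23 by -4.60 (SE 0.36, adjusted p = 2.11e-06) and from *tbph*Δ142 by -3.54 (SE 0.36, adjusted p = 2.47e-05). No array of these 2 genes overlaps between the rescue and any other group.

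CG17754 read 10.71, 11.21 and 10.83 in the 3 control arrays, 9.81, 9.71 and 9.90 in those of *tbph*Δ23, 9.28, 9.06 and 9.59 in those of *tbph*Δ142 and 6.29, 6.31 and 6.39 in those of the rescue. CG17754 has 3 probe sets, and all of them were lower in both mutants than in control and lower again in the rescue, at -3.39, -2.15 and -4.18 from the mean of the mutants. For CG14770 the 3 control arrays read 8.63, 8.96 and 8.34, those of *tbph*Δ23 7.04, 7.54 and 7.70, those of *tbph*Δ142 6.77, 6.72 and 6.49 and those of the rescue 4.0, 4.47 and 3.74. Control heads had CG13065 at 8.35, 8.53 and 8.55, *tbph*Δ23 heads at 7.40, 7.44 and 7.04, *tbph*Δ142 heads at 7.62, 7.28 and 7.43 and rescue heads at 4.99, 4.48 and 4.89. CG14770 and CG13065 each lost more between the mutants and the rescue than between control and the mutants. For CG14770 the rescue stood -2.59 (SE 0.22, adjusted p = 5.52e-06) from *tbph*Δ142, and for CG13065 -2.66 (SE 0.15, adjusted p = 2.23e-07).

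The signal of CG7896 was 7.15, 7.60 and 7.35 in control heads, 6.53, 6.44 and 6.54 in the heads of *tbph*Δ23, 6.65, 6.34 and 6.62 in those of *tbph*Δ142 and 4.08, 3.61 and 3.65 in rescue heads. RefSeq gives CG7896 the alternative name tartan/capricious-like, after a pair of leucine-rich repeat membrane proteins of the fly that act in cell affinity. It was -2.72 (SE 0.14, adjusted p = 9.66e-08) from *tbph*Δ23 and -2.76 (SE 0.14, adjusted p = 1.26e-07) from *tbph*Δ142. CG17746 read 10.95, 11.37 and 10.99 in the 3 control arrays, 10.30, 10.02 and 10.50 in those of *tbph*Δ23, 9.56, 9.50 and 9.68 in those of *tbph*Δ142 and 7.77, 7.70 and 7.67 in those of the rescue. RefSeq lists CG17746 as PP2C, the name of a family of protein serine/threonine phosphatases. It was -2.56 (SE 0.13, adjusted p = 8.41e-08) from *tbph*Δ23 in the rescue.

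In 15 genes the rescue passed the threshold against neither mutant, and all 15 stayed below *w1118* past it. The rule had put the mutants of these genes 0.8 or more below *w1118*, so the latter is largely given by the choice. The number that passed against neither mutant was 24 without rescue replicate 3. The difference of the 15 from the mean of the mutants ran from -0.39 to 0.26. For CG30197 the 3 control arrays read 13.22, 13.27 and 13.16, those of *tbph*Δ23 12.22, 12.24 and 12.42, those of *tbph*Δ142 12.15, 12.04 and 12.16 and those of the rescue 12.16, 12.23 and 12.18. Control and mutant arrays of CG30197 are tightly grouped, and its rescue differed from *tbph*Δ23 by -0.10 (SE 0.07, adjusted p = 0.303) and from *tbph*Δ142 by 0.07 (SE 0.07, adjusted p = 0.508), with 95% limits of ± 0.15 on each. Control heads had CG10916 at 7.94, 8.15 and 7.89, *tbph*Δ23 heads at 7.14, 7.03 and 7.28, *tbph*Δ142 heads at 7.17, 7.16 and 7.16 and rescue heads at 7.16, 7.06 and 7.23. The rescue of CG10916 was -0.003 from *tbph*Δ23 and -0.015 from *tbph*Δ142, with limits of ± 0.19 on each. It was -0.84 (SE 0.09, adjusted p = 1.12e-05) from *w1118*. CG10208, the sixth largest fall, stayed -1.95 (SE 0.10, adjusted p = 3.75e-08) from *w1118* with limits of ± 0.22.

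CG31207, CG11437 and CG18641 were 0.05, 0.05 and -0.10 from the mean of the mutants, and -0.97, -1.35 and -1.43 from *w1118*. CG8745 was -0.26 (SE 0.15, adjusted p = 0.249) from *tbph*Δ23 and 0.37 (SE 0.15, adjusted p = 0.108) from *tbph*Δ142, and the latter passed the threshold in a fit of those 2 groups alone (adjusted p = 0.0399). CG11437 is also listed as LPP-like and WUN-like, after the lipid phosphate phosphatase wunen, which in flies guides germ cell migration. The group also holds CG13531, CG13705, CG31220, CG31321, CG31717, CG4476 and CG11825. CG13285 was in it with all arrays, and without rescue replicate 1 it was lower than both mutants (-1.03, adjusted p = 0.00235, and -0.68, adjusted p = 0.029).

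Of the 16 genes that passed in 1 comparison only, 11 were lower and 5 higher than that mutant. The 11 were CG7214, CG30281, CG7130, CG9029, CG14218, CG42749, CG7497, CG33281, CG31205, CG6980 and CG15097, and the 5 were CG6356, CG4880, CG3513, CG11893 and CG3348. Several of them depend on single arrays. The signal of CG7214 was 12.56, 12.08 and 12.67 in control heads, 10.53, 10.85 and 11.04 in the heads of *tbph*Δ23, 11.49, 11.06 and 11.38 in those of *tbph*Δ142 and 11.01, 7.98 and 9.08 in rescue heads. CG7214 was -1.96 (SE 0.55, adjusted p = 0.0203) from *tbph*Δ142 and -1.45 (SE 0.55, adjusted p = 0.0701) from *tbph*Δ23. Without rescue replicate 1, its highest rescue array, the differences were -2.78 (adjusted p = 1.2e-05) and -2.27 (adjusted p = 4.82e-05), and without rescue replicate 2, its lowest, the former was -1.27 (adjusted p = 0.0555). CG3348 read 9.14, 6.66 and 8.40 in the 3 control arrays, 5.86, 5.46 and 5.59 in those of *tbph*Δ23, 6.22, 6.22 and 6.35 in those of *tbph*Δ142 and 8.40, 6.14 and 8.44 in those of the rescue. Control replicate 2 and rescue replicate 2 of CG3348 lie about 2 log2 units below the other arrays of their groups. It was 2.02 (SE 0.63, adjusted p = 0.0318) above *tbph*Δ23, and this missed the threshold without rescue replicate 1 (1.65, adjusted p = 0.0788), without rescue replicate 3 (1.64, adjusted p = 0.111) and without any 1 of the *tbph*Δ23 arrays (adjusted p from 0.0598 to 0.0881).

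Without rescue replicate 1 altogether, 21 genes were higher than both mutants, among them all 20 of the group above, and 43 were lower, 41 of them from the 44. Then 20 passed in neither comparison, and against *w1118* 80 were lower and 5 higher. CG3348, described above, and CG33281, CG9029, CG4880, CG6356 and CG6980 had passed in 1 comparison with all arrays and then passed in neither. CG33281 and CG9029 were -0.42 and -0.60 from *tbph*Δ23 (adjusted p = 0.0635 and 0.0702). From *tbph*Δ142, CG4880 and CG6356 were 0.42 and 0.37 (adjusted p = 0.0586 and 0.0648) and CG6980 was -0.36 (adjusted p = 0.0531). CG7214 and CG13285 joined the lower group and CG3513 joined the higher one, at 1.47 (adjusted p = 0.000297) and 0.85 (adjusted p = 0.0144). CG33093, CG4968 and CG7031 left the lower group, since 1 of their comparisons then missed the threshold (-0.42 from *tbph*Δ23, adjusted p = 0.0613; -0.32 from *tbph*Δ142, adjusted p = 0.0531; -0.39 from *tbph*Δ23, adjusted p = 0.0526).

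The alleles differed from each other in 9 of the 95 genes, 2 of which were higher and 7 lower in *tbph*Δ142 than in *tbph*Δ23, where 1.42% and 2.07% of all genes were. The mean of *tbph*Δ142 was the lower in 58 of the 95, and for this the share of all genes was not taken. For CG11893 the 3 control arrays read 7.72, 8.06 and 7.87, those of *tbph*Δ23 6.64, 6.20 and 6.68, those of *tbph*Δ142 3.83, 3.70 and 4.59 and those of the rescue 7.66, 6.13 and 6.06. CG11893, also listed as Dro5-6, had the largest difference, -2.47 (SE 0.37, adjusted p = 0.0054), and the arrays of the 2 alleles did not overlap. In the rescue, which carries *tbph*Δ23, it was 0.11 (SE 0.37, adjusted p = 0.872) from *tbph*Δ23, with limits of ± 0.81, and 2.58 (SE 0.37, adjusted p = 0.000339) from *tbph*Δ142. Its rescue replicate 1 read 1.57 above the mean of the other rescue arrays. Against *w1118* its rescue was -1.27 (SE 0.37, adjusted p = 0.0193), which missed the threshold without *w1118* replicate 2 (-1.18, adjusted p = 0.0642), rescue replicate 2 (-1.02, adjusted p = 0.0757) or rescue replicate 3 (-0.99, adjusted p = 0.0782). Without rescue replicate 1 it was -1.79 from *w1118* (adjusted p = 4.25e-05) and -0.42 from *tbph*Δ23 (adjusted p = 0.2).

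Control heads had CG31205 at 9.64, 9.71 and 9.33, *tbph*Δ23 heads at 6.88, 7.08 and 7.62, *tbph*Δ142 heads at 8.16, 8.10 and 8.35 and rescue heads at 7.01, 7.44 and 7.52. CG31205 is listed as SPH227, a serine protease homologue, the name given to proteins with a protease fold and no proteolytic activity. It was 1.01 (SE 0.19, adjusted p = 0.0148) higher in *tbph*Δ142, and its rescue arrays lay within the range of *tbph*Δ23, 0.13 (SE 0.19, adjusted p = 0.658) from it and -0.88 (SE 0.19, adjusted p = 0.00461) from *tbph*Δ142. The signal of CG7130 was 6.71, 7.48 and 6.96 in control heads, 6.15, 6.36 and 5.80 in the heads of *tbph*Δ23, 4.97, 5.32 and 5.17 in those of *tbph*Δ142 and 5.03, 4.92 and 5.01 in rescue heads. The rescue of CG7130 lay nearer *tbph*Δ142, -0.17 (SE 0.18, adjusted p = 0.563) from it and -1.11 (SE 0.18, adjusted p = 0.000686) from *tbph*Δ23. CG13796 read 9.14, 9.60 and 9.12 in the 3 control arrays, 8.09, 7.93 and 8.48 in those of *tbph*Δ23, 7.47, 7.32 and 7.5 in those of *tbph*Δ142 and 5.32, 5.22 and 5.19 in those of the rescue. The rescue of CG13796 lay below both alleles, at -2.19 (SE 0.15, adjusted p = 1.23e-06) from *tbph*Δ142.

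These smaller allele differences rest on few arrays. For CG31205 the call was lost without *tbph*Δ23 replicate 2 (0.95, adjusted p = 0.0619) or *tbph*Δ142 replicate 3 (0.93, adjusted p = 0.0621). For CG7130 it was lost without *tbph*Δ23 replicate 1 (-0.93, adjusted p = 0.0532) or 2 (-0.82, adjusted p = 0.0705) and without *tbph*Δ142 replicate 1 (-0.86, adjusted p = 0.0731) or 3 (-0.96, adjusted p = 0.0575). CG13796 differed by -0.74 (SE 0.15, adjusted p = 0.0199), and missed the threshold without *tbph*Δ23 replicate 3 or any 1 *tbph*Δ142 array (-0.77 to -0.58, adjusted p from 0.0549 to 0.0746). CG17746 differed by -0.69 (SE 0.13, adjusted p = 0.0154), and missed it without *tbph*Δ23 replicate 3 (-0.58, adjusted p = 0.0667), *tbph*Δ142 replicate 1 (-0.68, adjusted p = 0.06) or 2 (-0.65, adjusted p = 0.0563). CG11893 and CG10621 kept theirs under every setting, with a range of -2.74 to -2.30 and of 0.94 to 1.16.

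RefSeq holds all 95 as protein-coding, 49 with 1 protein and 46 with several, up to 6. For 20 of them its list of synonyms holds a further name. These 20 were grouped by name after their values were seen, so the groups are given as values only. Serine protease or protease homologue names belong to 4 genes. CG30083 (SP217) rose in the rescue, to 0.14 (SE 0.15, adjusted p = 0.502) from *w1118*, and without rescue replicate 1 it was 0.33 above *w1118* (adjusted p = 0.035). CG31220 (SP6) passed against neither mutant, and was -0.79 (SE 0.10, adjusted p = 9.77e-05) from *w1118*. CG31205 (SPH227) and CG14218 (SPH211) passed in 1 comparison only, and CG14218 was -0.67 (SE 0.14, adjusted p = 0.00285) from *tbph*Δ23.

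A pair of genes has the name of a transporter. CG4476, listed as DmNAT3, a nutrient amino acid transporter, averaged 5.88, 4.49, 4.51 and 4.75 in *w1118*, *tbph*Δ23, *tbph*Δ142 and the rescue. CG6356, listed as OCTN2 and Slc22a16 after the mammalian organic cation and carnitine transporters, averaged 8.42, 7.23, 6.96 and 7.35. Both were below *w1118* in the rescue, at -1.12 (SE 0.10, adjusted p = 3.71e-06) and -1.07 (SE 0.12, adjusted p = 2.44e-05) from it.

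Of the genes with the name of a lipid enzyme, CG42237 (PLA2, phospholipases that release a fatty acid from phospholipid) was lower in the rescue than in both mutants, with group means of 6.92, 5.87, 5.56 and 4.44. A pair of genes carries names from the ubiquitin system. CG4968 (OTUB1, in mammals a deubiquitinase) averaged 9.36, 8.40, 8.18 and 7.85, and CG15445 (NUB1, in mammals a protein that lowers NEDD8 conjugates) averaged 9.75, 8.90, 8.58 and 6.99. Both were lower in the rescue than in both mutants with all arrays. CG15445 was -1.91 (SE 0.11, adjusted p = 2.33e-07) from *tbph*Δ23 and -1.59 (SE 0.11, adjusted p = 1.42e-06) from *tbph*Δ142. CG11825 (dHIG1, after a hypoxia-induced mitochondrial protein of mammals) averaged 6.66, 5.09, 5.32 and 5.46 and passed against neither mutant.

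CG5188 (MAP1B), CG31717 (Css2), CG7497 (CHED-related) and CG30344 (MET) have a further name only. CG5188 rose in the rescue and CG30344 fell, with group means of 6.71, 5.69, 5.74 and 6.34 and of 9.93, 9.06, 8.87 and 7.89. In 14 of the 95, a synonym is a BcDNA clone name, and in 10 of these (71.4%) the clone has the prefix GH or RH, which fly clone collections use for adult head libraries. Among all 5137 CG genes 571 have such a name, 171 of them with these prefixes or HL, which was counted as a head library too (29.9%). The clone names were looked at after the values were seen. The median level in control heads was 7.63 for the 95 and 4.51 for all CG genes. The part of level in the shares of head-library clones was not tested. CG12483, CG12998, CG13024, CG13065, CG17298, CG31321 and CG5697 have RH names, and CG31663, CG3713 and CG7497 have GH names.

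Few neighbours on the chromosome had fallen as far. No 2 of the 95 genes are adjacent in RefSeq order, and 10 of them lie within 20 kb of another, in 4 runs. The immediate measured neighbour had also fallen by 0.8 or more in both alleles for 4 of the 95 (4.21%), against 161 of the 4943 other CG genes with a measured neighbour (3.26%). A neighbour lower in both alleles by the fit stood beside 21 of the 95 (22.1%) and beside 762 of the others (15.4%). The 4 neighbours past the limit have names. Obp99b, an odorant-binding protein next to CG15506, averaged 10.13, 5.95, 6.61 and 10.82 in *w1118*, *tbph*Δ23, *tbph*Δ142 and the rescue, while CG15506 averaged 7.55, 6.43, 5.86 and 4.31, so in the rescue the former lay above both mutants and the latter below them. Cpr51A, a cuticle protein next to CG30197, averaged 7.88, 4.83, 4.95 and 5.94. Prx6c, a peroxiredoxin next to CG11825, and nudC next to CG13024 were the other two, with 7.27, 5.88, 6.07 and 7.53 and with 9.25, 8.26, 7.63 and 7.45.

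In the run from CG3513 to CG31955, 17 genes lie end to end and 10 were measured. CG3513 averaged 7.11, 5.36, 5.98 and 6.40 and CG31955 7.58, 6.32, 6.27 and 6.98. Between them CG16713 rose from 3.24 in *w1118* to 10.79 and 11.24 in *tbph*Δ23 and *tbph*Δ142, with 10.56 in rescue heads, and IM33, an immune-induced peptide, from 12.35 to 12.96, 13.09 and 12.84. CG31955 was 0.65 (SE 0.11, adjusted p = 0.000939) above *tbph*Δ23 in the rescue. CG3513 was 1.04 (SE 0.32, adjusted p = 0.0298) above *tbph*Δ23, which missed the threshold without *tbph*Δ23 replicate 1 (0.94, adjusted p = 0.0935) or 3 (1.05, adjusted p = 0.072) and without rescue replicate 2 (0.70, adjusted p = 0.105) or 3 (0.97, adjusted p = 0.084).

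In the run of CG13793, CG13796 and CG7214, the first of these rose in the rescue and the second fell. CG13795 between them was 1.16 and 1.59 above control in the respective alleles, and CG13794 was -0.66 and -0.36 from it. In the run of CG4950, CG13067 and CG13065, the 3 genes between them, CG13068, CG34248 and CG13066, passed the threshold in neither mutant. CG4950 rose in the rescue, while CG13067, with means of 10.34, 9.17, 9.19 and 8.32, was -0.84 (SE 0.15, adjusted p = 0.00109) from *tbph*Δ23 and CG13065 fell further still.

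In the last run, CG13062 averaged 5.69, 4.76, 4.64 and 4.05 and CG13059 7.18, 6.24, 5.88 and 5.37. CG13062 was -0.59 (SE 0.10, adjusted p = 0.00112) from *tbph*Δ142 in the rescue. CG13059 was -0.51 (SE 0.13, adjusted p = 0.0137), which missed the threshold without *tbph*Δ142 replicate 2 (-0.46, adjusted p = 0.0524) or rescue replicate 3 (-0.45, adjusted p = 0.0538). Between them Nplp3, a neuropeptide-like precursor, was -0.11 and -0.21 from control in the mutants and -0.93 in the rescue. Of the 130 CG genes measured within 1 Mb of *TBPH*, the locus that the alleles change, 2 are among the 95. These are CG4741, described above, and CG13563, which averaged 7.06, 5.80, 5.52 and 6.48 and rose in the rescue by 0.68 (SE 0.10, adjusted p = 0.000276) over *tbph*Δ23.

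**Figure D4:**
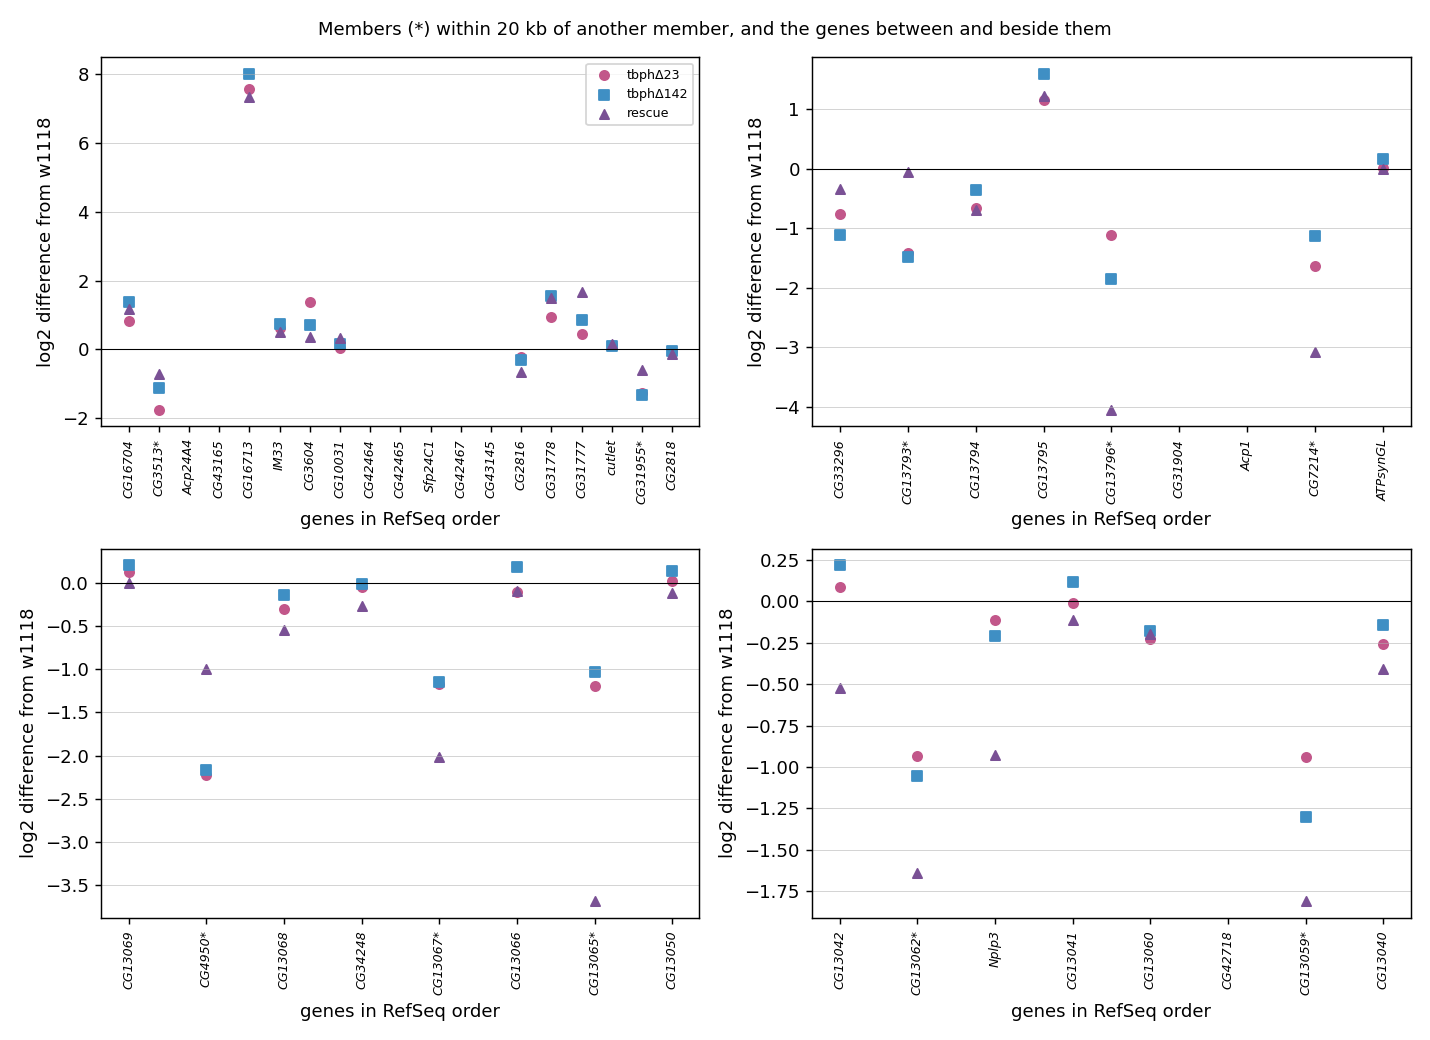
Log2 difference of the group mean from *w1118* for the genes of the 4 runs, in RefSeq order, with an asterisk on each of the 10 genes of the 95 and gaps where a gene was not measured. The genes between them lie on both sides of 0, with CG16713 at 7.55 in *tbph*Δ23, and the rescue lies above the mutants for CG13793 and CG4950 and below them for CG13796 and CG13065.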

How the data were processed

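Head RNA of 4 groups of 3 arrays was isolated in TRIzol, labelled with biotin in a 3' IVT reaction and read on Affymetrix Drosophila Genome 2.0 arrays. The authors made the deposited log2 intensities with RMA (background correction, quantile normalization between arrays and probe-set summarization, version not given in the sources used here). They span 2.32 to 14.23. The platform annotation gives 1 gene to 13647 of 18952 probe sets, several to 402 and lists none for 4903, of which 183 are controls. Only the first kind was used. RefSeq (Release 6), matched by gene ID for 13544 probe sets, gave symbols, synonyms and gene order. The median over its probe sets was taken for each of 11982 genes, with no filter on level. No sequence or coordinate is given, since the sources used here name no build for the files.

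limma 3.58.1 in R 4.3.3 was fitted to the 4 group means over all 12 arrays, with two-sided p-values adjusted by Benjamini-Hochberg within each contrast over all genes, a threshold of 0.05 and no fold limit. The number of arrays limits precision: the median standard error was 0.0928. Spread is pooled over groups, and the rescue arrays correlated least with each other. Arrays with the same replicate number did not deviate together (residual correlation -0.212 to 0.0914 over 18 pairs, 0 above 0.1), so the replicate number was a block only in an alternative.

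The 95 genes, the marker lists and the tests were chosen with earlier results of these data known. Named are the 10 genes with the largest fall, in the rescue the 8 highest and the 8 lowest relative to the mutants among those past the threshold in both comparisons, the 6 with the rescue nearest the mutants, up to 6 that differ between alleles, those within 20 kb of another or within 1 Mb of TBPH, and 3 on each side of the limit. Product names, protein and promoter sequences were not used here. Alternatives were the mean or the brightest probe set per gene, centred arrays, cyclic loess, a mean level of at least 4.5, limits of -0.7 and -0.9, fits of the compared groups alone, a trended robust prior, array weights, the replicate block and leaving out each array.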

Additional observations from a re-analysis of the deposited data

Results flagged for a closer look

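In 9 of the 95 genes the 2 alleles differed from each other by a test of the difference itself (limma, adjusted over all genes), and these are listed for a closer look, with 3 arrays per allele and no explanation tested. Relative to tbphΔ23, tbphΔ142 was lower for CG11893 at -2.47 (adjusted p = 0.0054), CG7130 at -0.95 (adjusted p = 0.0171), CG13796 at -0.74 (adjusted p = 0.0199), CG17746 at -0.69 (adjusted p = 0.0154), CG1440 at -0.65 (adjusted p = 0.0245), CG11380 at -0.60 (adjusted p = 0.0176) and CG7497 at -0.54 (adjusted p = 0.0273). It was higher for CG10621 at 1.06 (adjusted p = 0.00304) and CG31205 at 1.01 (adjusted p = 0.0148). CG1440 read 9.18, 9.27 and 9.55 in the tbphΔ23 arrays and 8.84, 8.57 and 8.64 in those of tbphΔ142. CG11380 read 5.97, 6.02 and 6.37 against 5.58, 5.39 and 5.57, and CG7497 7.70, 7.83 and 7.84 against 7.35, 7.0 and 7.39. Arrays of the alleles did not overlap in these 3 genes.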

How the results depend on the processing

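The number of genes taken by the rule was 83 to 97 with other probe-set summaries, normalizations or a level filter, 84 to 111 with an array left out, 130 at a limit of -0.7 and 75 at -0.9. For the 95, the counts of higher and lower genes against the rescue stayed within 1.5 times under all 21 alternatives, with 18 to 22 higher and 40 to 45 lower than both mutants, 20 to 24 and 47 to 53 against tbphΔ23, 19 to 23 and 42 to 49 against tbphΔ142, and 4 to 5 and 71 to 81 against w1118. The rescue passed against neither mutant in 12 to 24 genes (15 with all arrays, 24 without rescue replicate 3). The lowest values of 71 and 12 came from the level filter, which kept 83 of the 95. With the replicate block 21 were higher and 44 lower than both mutants, and the numbers did not pair the arrays. The counts between alleles were less stable. Fits of those groups alone gave 4 higher and 11 lower in tbphΔ142, and array weights gave 11 lower. With an array left out, 1 to 3 were higher and 2 to 11 lower. There was 1 higher without tbphΔ23 replicate 2 or tbphΔ142 replicate 3. There were 2 lower without tbphΔ23 replicate 3 or tbphΔ142 replicate 2, 3 without tbphΔ142 replicate 1, 4 without tbphΔ142 replicate 3 and 11 without rescue replicate 1. The cause was not tested.

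With the brightest probe set per gene, CG40485 turned to -0.23 from tbphΔ23 (adjusted p = 0.0961), -0.55 from tbphΔ142 (adjusted p = 0.0012) and 0.25 from w1118 (adjusted p = 0.0588), since this setting keeps the probe set that did not fall. Of 3508 values for named genes, 3422 stayed on their side of the threshold (48 of them changed sign while past it in neither setting), 54 lost the threshold, 29 gained it and 3 reversed. The calls in both comparisons held under every setting that kept the gene for 17 of 20 higher genes, all but CG10516, CG13428 and CG40485, and for 38 of 44 lower ones. The level filter left CG13793 and CG42329 of the higher genes and CG33093, CG4702 and CG7031 of the lower ones untested. Many genes are near the low end of the scale in the rescue (38 below 5), where changes are compressed.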

Other observations

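Probe sets that the annotation lists with no gene or with several were not used above. By the same limit, 27 of 4720 without a gene, controls left out (0.572%), and 7 of 402 with several genes (1.74%) lay 0.8 or more below control in both alleles, against 256 of 13647 with a single gene (1.88%). In those lowered, the median difference of the rescue from the mean of the mutants was -0.02, -0.01 and -0.37.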
